A study of Mus musculus with 10 samples.

Results

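CD8+ T cells that had been activated and then kept for 1 further day in keratinocyte medium, without keratinocytes, were compared with CD8+ T cells that were collected right after activation. Both groups held 2 libraries, so that 4 of the 10 libraries of the series enter the comparison, and all genes were examined. For the first group, called activated T cells, splenic cells of wild-type C57/B6 mice of 8 to 12 weeks had been isolated with CD8 microbeads and cultured for 1 d with αCD3/CD28 Abs in X-vivo medium. For the second group, called T cells in mixed medium, the labels name the same 1 d of activation followed by 1 d in keratinocyte medium, a serum-free and calcium-poor medium that the study mixed with X-vivo medium. The labels do not say whether the libraries of a group came from separate mice, so that all p-values measure the spread between libraries, which may be technical. In the test, 2 libraries of T cells co-cultured with keratinocytes also entered the estimate of this spread. The medium, the time after activation and the removal of the stimulating Abs differed together between the groups and cannot be told apart. In bulk RNA, fewer cells of a type and less RNA per cell cannot be told apart either.

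When the T-cell receptor and CD28 are engaged, calcium enters the cell and calcineurin activates NFAT factors, which together with AP-1 factors switch on cytokine and chemokine genes. Activated CD8+ T cells then grow, load granules with granzyme and perforin, and turn to glycolysis, amino acid uptake, sterol synthesis and the production of ribosomes under the control of MYC, HIF-1 and related regulators. Once the stimulus is gone, many of these programs decline, and genes of naive and memory T cells, which direct the cells to lymph nodes and prepare them for fatty acid oxidation, can return.

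Between 13161039 and 15926898 exon reads were counted in each of the 4 libraries, so that for a transcript of 1 kb a count of 3 gives between 0.188 and 0.228 RPKM, a limit for counting error only. RPKM are reads per kilobase of exon, scaled to the mapped reads of the library, and only these values are used to compare levels between genes. The libraries of a group differed far beyond sampling noise, with a mean chi-square per degree of freedom of 126 for activated T cells and of 94.2 for T cells in mixed medium. The share of exon reads on the 13 mitochondrial genes was 2.71% and 5.01% in activated T cells and 6.08% and 7.997% in mixed medium. Reads on 83 genes of ribosomal proteins made up 12.7% and 17.8% in activated T cells and 19.0% and 22.2% in mixed medium. Of the 81 of these genes that were tested 0 were called higher and 1 lower, and their median log2 fold change was 0.50. The part of RNA quality in any result below was not tested.

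The cells carried the markers of CD8+ T cells in all 4 libraries. Cd8a, which encodes a chain of the CD8 co-receptor, was at 176 and 110.0 RPKM in activated T cells and at 334 and 219 RPKM in mixed medium. Cd8b1, its partner chain, was at 277 and 141 RPKM in activated T cells and at 762 and 379.9 RPKM in mixed medium. Both were above activated T cells in every library of mixed medium, but neither passed the test described next (log2 fold change 1.09, standard error 0.34, adjusted p = 0.0981 for Cd8a, and 1.59, standard error 0.47, adjusted p = 0.0834 for Cd8b1 in edgeR). The tables annotate no exon for Trac, Trbc1 and Trbc2, the constant parts of the T-cell receptor, whose reads were counted as intronic.

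Of 11863 genes tested, 776 differed between the groups at an adjusted p under 0.05 in edgeR's quasi-likelihood test, which is 6.54% of the genes. Of these, 275 (2.32%) were higher and 501 (4.22%) lower in mixed medium. The counts of each gene group below are to be read against these shares, and several lie near them. A gene past this threshold is named called in the following, and "rose" and "fell" refer to T cells in mixed medium against activated T cells. With 2 libraries in each group the smallest two-sided p of an exact permutation test is 0.333, and each call therefore rests on the spread shared between genes. The libraries of both groups did not overlap for any of the 776 genes, but this was also seen for 6474 of all genes tested (54.6%). The called changes were large, the smallest at a log2 fold change of 1.20 in either direction, with a median of 2.23 for rises and of -2.16 for falls, against -0.01 for all genes tested.

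The number of calls depended on each library. Without activated library 1, 28 genes were higher and 34 lower, without activated library 2, 258 and 336, without mixed medium library a, 35 and 22, and without library b, 16 and 8. In these fits the lone library of a group is assumed to vary like the others. All 776 genes kept their direction in all 4 of these fits, while 17 kept their call in each of them and 332 lost it whichever library was left out. The counts for gene groups below are therefore given with those of the 4 fits, in the order without activated library 1, without activated library 2, without mixed medium library a and without library b.

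**Figure D1:**
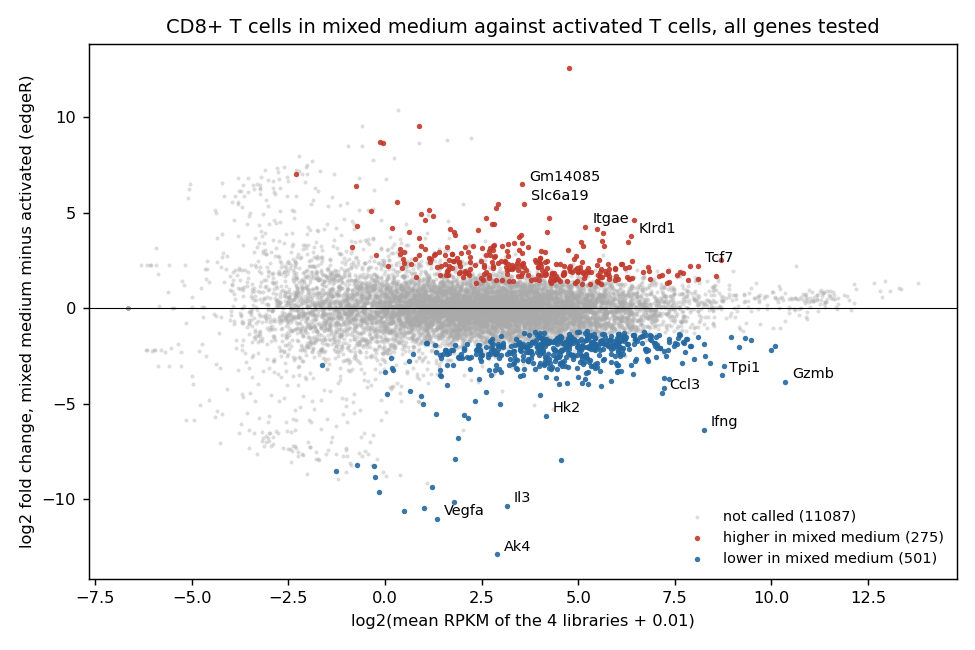
Each point is 1 of the 11863 genes tested, with the mean RPKM of the 4 libraries on the x axis (log2 scale, 0.01 added) and edgeR's log2 fold change (mixed medium minus activated) on the y axis. The 275 genes called higher are red, the 501 called lower blue; Ak4, Vegfa and Il3 lie lowest among the labelled genes and had 0 reads in mixed medium, so that their fitted value is no measure of size.

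The 10 largest falls at 5 or more RPKM were those of Ak4, Vegfa, Il3, Rpp25, Crabp2, Lilrb4, Zc3h8, Ifng, Arhgdig and Hk2. Ak4, an adenylate kinase of mitochondria, was at 14.6 and 15.2 RPKM in activated T cells and had 0 reads in both libraries of mixed medium. Against a floor of 3 reads per library it was at least 347-fold lower, and it stayed called whichever library was left out. Rpp25, a subunit of the RNase P and MRP complexes, fell from 6.94 and 6.78 RPKM to 0, at least 51.7-fold. Crabp2, which binds retinoic acid in the cytoplasm, fell from 47.3 and 46.2 RPKM to 0.348 and 0 RPKM. Zc3h8, a zinc finger protein, had 372 reads in activated T cells and 3 in mixed medium, a ratio of 126 after division by the library totals (95% exact interval 42.9 to 616, for counting error only). Arhgdig, which encodes a GDP dissociation inhibitor, fell from 11.2 and 6.24 RPKM to 0.213 and 0.0847 RPKM. Lilrb4 overlaps Lilrb4a in the annotation and only 1.00% of its reads mapped uniquely, so that its value is uncertain.

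Dntt, Slc6a19, Haao, Psrc1, Cdkn3, Gm14085, Ctla2a, Ctla2b, AC160962.1 and AC161165.4 showed the 10 largest rises at 5 or more RPKM. Slc6a19, a transporter of neutral amino acids (chromosome 13 of GRCm38, from 73679745 to 73704865, 15 exons), was nearly silent in activated T cells at 0.680 and 0.476 RPKM. In mixed medium it was at 25.5 and 21.3 RPKM (log2 fold change 5.48, standard error 0.38, adjusted p = 0.00281 in edgeR). Gm14085, a predicted gene with 62.8% uniquely mapped reads, was at 0.270 and 0.278 RPKM before and at 27.5 and 18.1 RPKM in mixed medium. Dntt, the terminal transferase that adds nucleotides during V(D)J recombination, rose from 0.196 and 0.620 RPKM to 16.5 and 11.7 RPKM. Haao, an enzyme of tryptophan breakdown, rose from 0.974 and 0.398 RPKM to 14.8 and 12.2 RPKM. These 4 genes stayed called whichever library was left out.

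Ctla2a and Ctla2b encode closely related inhibitors of cysteine proteases. Only 12.7% of the Ctla2a reads and 22.9% of the Ctla2b reads mapped uniquely, and both overlap AC160962.1 (2.90%), so that the reads of these genes cannot be assigned with certainty. Ctla2a was at 4.08 and 10.997 RPKM in activated T cells and at 137 and 197 RPKM in mixed medium. AC161165.4, with 1557 reads in mixed medium and 0 in activated T cells, overlaps the tubulin genes Tuba1a and Tuba1b, and 0% of its reads mapped uniquely.

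Of the 10 largest falls, Il3 and Ifng belong to a list of cytokine and chemokine genes linked to NFAT. Of 28 tested genes of this list 7 fell and 0 rose, with a median log2 fold change of -1.48. Without 1 library 3, 7, 3 and 3 members were called lower and 0, 2, 0 and 0 higher (Ccl5 and Ltb), not always those of the full fit, and the median stayed between -1.70 and -1.06. Ifng, which encodes interferon-γ (ENSMUSG00000055170, chromosome 10 of GRCm38, from 118441046 to 118445892, 4 exons), was at 613 and 589 RPKM in activated T cells. In mixed medium it was at 5.95 and 7.20 RPKM, with a log2 fold change of -6.36 (standard error 0.49, adjusted p = 0.00345 in edgeR). The groups stood far apart, and the call held whichever library was left out. Il3, a growth factor for myeloid progenitors (ENSMUSG00000018914, chromosome 11, from 54265303 to 54267277, 5 exons), was at 13.9 and 21.5 RPKM and had 0 reads in mixed medium, at least 59.3-fold lower. It lost its call whichever library was left out. Lta, which encodes lymphotoxin-α, fell from 96.5 and 44.2 RPKM to 5.66 and 6.71 RPKM, and Lif, a cytokine of the interleukin-6 family, from 14.4 and 9.08 RPKM to 0.447 and 0.544 RPKM.

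Among the chemokines, Xcl1, which attracts cross-presenting dendritic cells, fell from 335 and 216 RPKM to 18.2 and 21.3 RPKM (log2 fold change -3.64, standard error 0.47, adjusted p = 0.0123 in edgeR). Ccl3 and Ccl4, which attract monocytes and T cells, fell as well, Ccl3 from 291 and 260.2 to 12.8 and 10.6 RPKM and Ccl4 from 209.6 and 397 to 11.3 and 30.6 RPKM. Ccl5, which attracts T cells, did not pass the test, with 68.0 and 323 RPKM in activated T cells and 299.8 and 335 RPKM in mixed medium. Ltb, which encodes lymphotoxin-β, was at 70.4 and 228 RPKM and at 336 and 414 RPKM in mixed medium, and Tgfb1 at 94.95 and 62.6 RPKM and at 52.3 and 28.5 RPKM. Neither was called. Il2 and Tnf were low in all libraries, at 2.18 RPKM or less for Il2 and at 5.26 RPKM or less for Tnf, and were not called. Il5 was too low to be tested.

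The 250 bases upstream of the start of the 2 genes of this list with the largest falls are shown because NFAT factors bind the letters GGAAA. The sequences are those of RefSeq (GRCm38.p6) for the strand of the gene, with GGAAA or its reverse TTTCC in capitals.
Il3, minus strand, chr11:54267280-54267529: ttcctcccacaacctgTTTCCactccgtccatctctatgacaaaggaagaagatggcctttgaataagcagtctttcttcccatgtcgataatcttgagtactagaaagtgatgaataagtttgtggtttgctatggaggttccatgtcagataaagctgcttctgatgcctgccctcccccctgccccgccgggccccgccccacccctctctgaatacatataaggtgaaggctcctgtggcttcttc
Ifng, plus strand, chr10:118440796-118441045: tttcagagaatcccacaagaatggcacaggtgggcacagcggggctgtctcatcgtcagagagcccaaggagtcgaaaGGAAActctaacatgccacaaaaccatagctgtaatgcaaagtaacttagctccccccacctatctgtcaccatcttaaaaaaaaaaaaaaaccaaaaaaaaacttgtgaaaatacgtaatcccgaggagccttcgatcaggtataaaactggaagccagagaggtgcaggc
Such windows were matched by symbol for 9237 of the 11863 genes tested. GGAAA on either strand was found in a window of 21 of the 22 cytokine and chemokine genes with a window (95.5%), and in 58.8% of the 27025 genes of the whole table. The 6 called genes with a window, Il3, Ifng, Lta, Lif, Ccl3 and Xcl1, all held it. Among all called genes it was found for 53.8% of those that fell and 59.2% of those that rose. A match of these letters is a description and not a binding site.

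Many transcription factors of the early response to the T-cell receptor fell. Of 33 tested genes 14 fell and 0 rose, with a median log2 fold change of -1.55. Without 1 library 3, 7, 1 and 1 genes fell, and the median was between -1.67 and -1.41. Atf3, a stress-induced factor of the AP-1 family, fell from 20.1 and 10.4 RPKM to 0.391 and 0.457 RPKM. Nr4a3, an orphan nuclear receptor, fell from 38.5 and 23.5 RPKM to 1.87 and 0.630 RPKM and stayed called whichever library was left out. Its relatives Nr4a1 (20.8 and 26.7 to 3.95 and 4.20 RPKM) and Nr4a2 (5.42 and 6.58 to 0.778 and 0.619 RPKM) also fell. Irf4, a factor that scales with the strength of the receptor signal, fell from 77.2 and 36.4 RPKM to 6.11 and 5.65 RPKM. Egr2 fell from 8.46 and 6.54 to 1.35 and 0.955 RPKM.

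Myc, a driver of growth and of metabolic genes, was at 145 and 69.1 RPKM in activated T cells and at 22.8 and 11.5 RPKM in mixed medium (log2 fold change -2.50, standard error 0.51, adjusted p = 0.0313 in edgeR). The activated libraries differed in Myc, but both were above both libraries of mixed medium. Members of the AP-1 family that did not pass the test were Jund (281 and 179 against 151 and 118 RPKM) and Batf (55.2 and 81.2 against 52.1 and 61.6 RPKM). The phosphatase gene Dusp2 overlapped between the groups, at 39.9 and 52.2 against 42.2 and 69.3 RPKM.

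Of the 31 tested genes for calcium entry, calcineurin and NFAT itself 0 were called in edgeR, and their median log2 fold change was 0.49. At an unadjusted p under 0.05 there were 9, DESeq2 called 3 higher and 1 lower, and limma called 0. Without activated library 2, 1 gene was higher and 1 lower, and 0 were called without any of the other 3 libraries. Nfatc1 was at 17.3 and 17.3 RPKM in activated T cells and at 18.2 and 10.2 RPKM in mixed medium, and Nfatc2 at 4.68 and 3.83 and at 5.66 and 2.54 RPKM. For both factors the groups overlapped. Rcan1, an inhibitor of calcineurin that is itself a target of NFAT, was at 2.63 and 4.04 RPKM and at 5.73 and 9.37 RPKM, above activated T cells but not called (log2 fold change 1.33, standard error 0.50, adjusted p = 0.147 in edgeR). Of the most abundant members, the calmodulin gene Calm2 (184 and 219.8 against 176 and 217 RPKM) and S100a10 (137 and 467 against 560.2 and 729.9 RPKM) were not called.

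In the list of the T-cell receptor and its proximal signalling 2 of 23 tested genes rose, 0 fell, and the median log2 fold change was 0.50. They were Ptpn22, a tyrosine phosphatase (35.8 and 49.2 to 134 and 96.7 RPKM), and Dgka, a kinase that removes diacylglycerol (24.3 and 24.4 to 90.8 and 50.6 RPKM). Dgka lost its call whichever library was left out. Without 1 library 0, 3, 0 and 0 genes of this list rose. The receptor chains Cd3d (109.9 and 230.0 against 341 and 426 RPKM) and Cd3g (138 and 344 against 468 and 513 RPKM) were above activated T cells in both libraries of mixed medium but were not called.

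Receptors of activated T cells changed in both directions. Of 29 tested genes 7 fell and 2 rose, and the median log2 fold change was -0.43. Without 1 library 2, 4, 2 and 0 genes fell, 0, 1, 1 and 0 rose, and the median lay between -0.78 and 0.08, so that its sign was not stable. Il2ra, the high-affinity chain of the interleukin-2 receptor, fell from 105 and 67.0 RPKM to 8.89 and 6.98 RPKM (log2 fold change -3.29, standard error 0.34, adjusted p = 0.00991 in edgeR). Tnfrsf9, the co-stimulatory receptor 4-1BB, fell from 161 and 156 RPKM to 12.6 and 13.7 RPKM, with 24.7% uniquely mapped reads. Tfrc, the transferrin receptor, fell from 90.6 and 33.6 RPKM to 7.26 and 7.54 RPKM.

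Klrd1, which encodes the CD94 chain of NK receptors, rose from 11.4 and 13.6 RPKM to 94.7 and 212 RPKM, and Cd27, a co-stimulatory receptor, from 38.7 and 41.1 RPKM to 103 and 122 RPKM (20.3% uniquely mapped reads). Not called were the inhibitory receptor Lag3 (124 and 130.1 against 71.8 and 68.4 RPKM), Tigit (47.6 and 120.2 against 76.9 and 72.6 RPKM) and Tnfrsf18 (149.8 and 196 against 54.5 and 101 RPKM). Cd69, an early marker of activation, was at 57.5 and 63.7 RPKM and at 15.8 and 24.5 RPKM in mixed medium. Its libraries did not overlap, but it missed the threshold (log2 fold change -1.43, standard error 0.38, adjusted p = 0.0652 in edgeR).

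Among genes of killing, granzyme B and perforin fell while most others did not pass the test. Gzmb, the main granzyme of activated CD8+ T cells (ENSMUSG00000015437, chromosome 14 of GRCm38, from 56258838 to 56262260, 5 exons), was at 2966 and 1968 RPKM in activated T cells and at 134 and 174 RPKM in mixed medium. Its share of all exon reads went from 0.450% and 0.309% to 0.0211% and 0.0278% (log2 fold change -3.84, standard error 0.42, adjusted p = 0.0106 in edgeR). Prf1, which encodes the pore-forming perforin, fell from 48.8 and 31.2 RPKM to 4.28 and 3.75 RPKM. Serpinb9, an inhibitor of granzyme B that protects the killer cell, fell from 109.9 and 88.0 RPKM to 19.4 and 23.1 RPKM.

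Ctsw, a cathepsin of cytotoxic cells, was the 1 gene of this list that rose, from 23.8 and 27.0 RPKM to 90.7 and 75.0 RPKM. In all, 3 of 23 tested genes fell and 1 rose. The median log2 fold change was 0.05 and became negative with library size in place of TMM and without activated library 1. Without 1 library 1, 2, 1 and 0 genes fell and 0, 1, 0 and 0 rose. Gzma overlapped between the groups (5.32 and 20.6 against 5.21 and 11.9 RPKM), as did Srgn, the proteoglycan of the granules (217 and 497 against 278 and 393 RPKM), and Nkg7 (157 and 289 against 262 and 317 RPKM).

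Of 39 tested genes of naive and memory T cells and of lymph node homing 5 rose and 0 fell, and the median log2 fold change was 1.07, between 0.66 and 1.46 when 1 library was left out. Pik3ip1, an inhibitor of PI3 kinase, rose from 1.65 and 2.95 RPKM to 41.4 and 27.0 RPKM and stayed called whichever library was left out. Itgae, the CD103 integrin chain of T cells in epithelia (chromosome 11 of GRCm38, from 73090583 to 73147446, 32 exons), rose from 1.57 and 6.00 RPKM to 85.2 and 51.4 RPKM (log2 fold change 4.27, standard error 0.82, adjusted p = 0.0270 in edgeR). Tcf7, which encodes the factor TCF1 of naive and memory cells, rose from 93.1 and 109 RPKM to 629 and 258 RPKM. Ly6c2, a surface marker of memory CD8+ T cells, rose from 66.8 and 22.6 RPKM to 229 and 130.1 RPKM. Both Tcf7 and Ly6c2 lost their call whichever library was left out.

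For several genes of this list activated library 1 stood apart from the other 3 libraries. Klf2, a factor of quiescence and egress, was at 10.4 and 61.0 RPKM in activated T cells and at 96.8 and 81.4 RPKM in mixed medium. S1pr1, the egress receptor that KLF2 controls, was at 10.04 and 60.3 RPKM and at 79.5 and 89.6 RPKM, and Il7r at 11.96 and 49.2 RPKM and at 87.0 and 64.8 RPKM. None of these was called. Without activated library 2, 11 genes of the list rose, and 1 rose without each of the other libraries. Ccr7 was high in both groups (205 and 182 against 278 and 383 RPKM) and was not called.

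Of 36 tested genes of cytokine receptors and STAT signalling 3 fell and 1 rose, with a median log2 fold change of 0.15. When 1 library was left out the median lay between -0.07 and 0.44, so that its sign was not stable. The kinase genes Pim2 (254 and 276 to 48.7 and 57.4 RPKM) and Pim1 (112 and 102 to 28.3 and 33.9 RPKM) fell, as did Cish (45.3 and 46.8 to 8.82 and 14.7 RPKM), an inhibitor of cytokine signals. All 3 are known targets of STAT5. Ifnar2, a chain of the receptor for type I interferon, rose from 10.6 and 9.72 to 35.7 and 22.9 RPKM, with 38.1% uniquely mapped reads. None of these falls was called once 1 library was missing, and 1 gene rose without activated library 2. The receptor chains Il2rb (115 and 138 against 196 and 164 RPKM) and Il2rg (196 and 224 against 307 and 211 RPKM, 5.84% uniquely mapped reads) were not called.

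Of 25 tested chemokine receptors and integrins 2 rose and 0 fell, namely Itgae and Ccr9, the receptor for gut homing, which rose from 0.468 and 1.503 RPKM to 8.42 and 9.12 RPKM. Of them 0, 5, 0 and 0 rose without 1 library. The median log2 fold change of 0.35 turned negative without activated library 1. Itgb7, the partner chain of Itgae (44.2 and 157 against 320.5 and 274 RPKM), and Cxcr3 (23.5 and 86.9 against 146 and 157 RPKM) were above activated T cells but were not called.

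**Figure D2:**
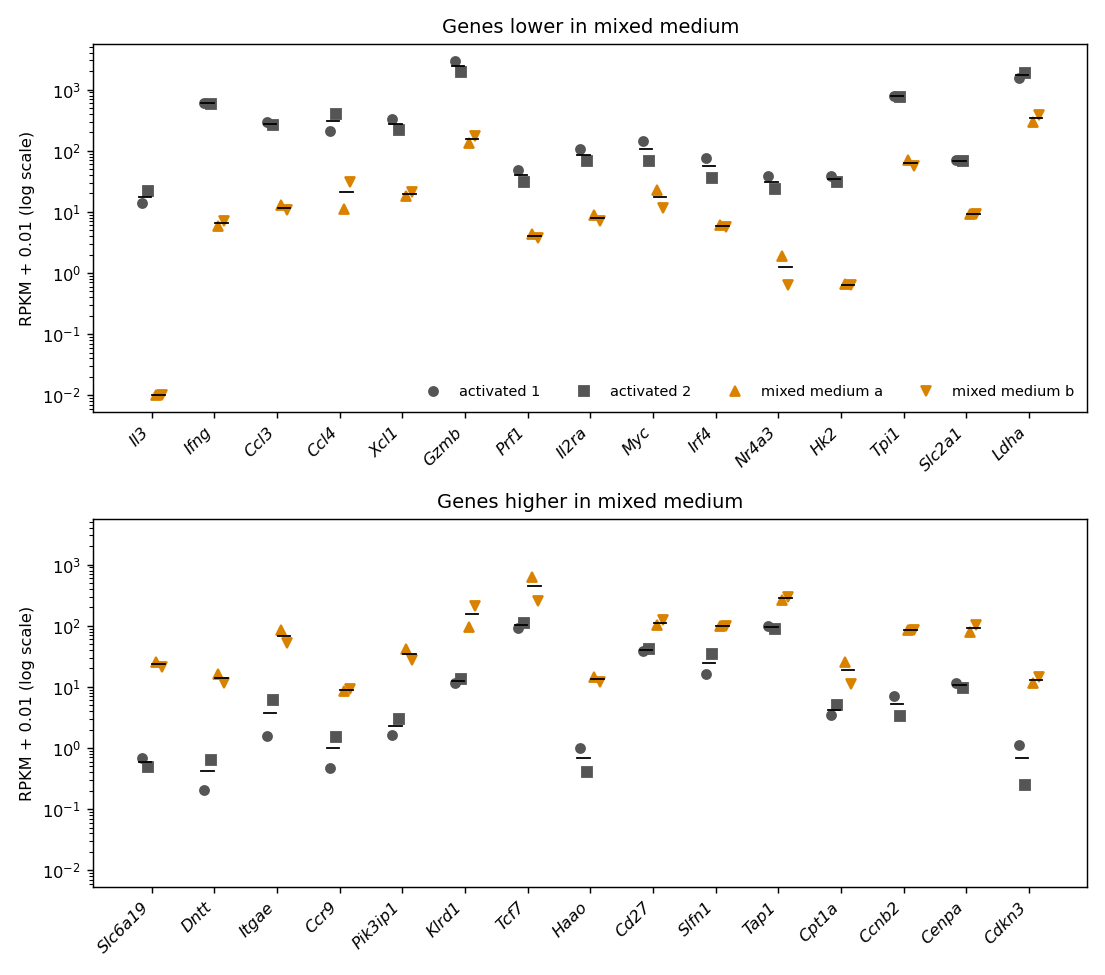
RPKM of 15 genes that fell (top) and 15 that rose (bottom) in each library, on a log axis with 0.01 added, for activated T cells (grey, libraries 1 and 2) and T cells in mixed medium (orange, libraries a and b), with black bars for the mean of each group. For all 30 genes both libraries of mixed medium lie on 1 side of both libraries of activated T cells; Il3 is at 0 in mixed medium, and Gzmb drops from 2966 and 1968 to 134 and 174 RPKM.

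Many glycolysis genes fell. Of 22 tested genes 11 fell and 0 rose, and the median log2 fold change was -1.62, between -1.74 and -1.43 when 1 library was left out. Without 1 library 7, 11, 3 and 2 genes fell. Hk2, the inducible hexokinase (ENSMUSG00000000628, chromosome 6 of GRCm38, from 82725025 to 82774454, 22 exons), was at 39.0 and 30.9 RPKM in activated T cells and at 0.640 and 0.621 RPKM in mixed medium (log2 fold change -5.64, standard error 0.46, adjusted p = 0.00400 in edgeR). Both groups were tight, and Hk2 stayed called whichever library was left out. The lactate exporter Slc16a3 fell from 44.7 and 53.8 RPKM to 2.54 and 3.32 RPKM, and triose phosphate isomerase, Tpi1, from 794 and 767 RPKM to 70.5 and 55.5 RPKM.

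The glucose transporter Slc2a1 fell from 70.4 and 67.2 RPKM to 9.05 and 9.04 RPKM, Pfkl, a phosphofructokinase, from 86.2 and 58.4 RPKM to 8.55 and 7.61 RPKM, and Ldha, lactate dehydrogenase A, from 1533 and 1874 RPKM to 293 and 384 RPKM. Not all enzymes of the pathway moved alike. Gpi1, the enzyme that follows hexokinase, overlapped between the groups at 313 and 279 against 293 and 201 RPKM. Pgk1 (962 and 1263 against 477 and 650.5 RPKM) and Gapdh (1630.1 and 1282 against 747 and 533 RPKM, 2.68% uniquely mapped reads) were lower in mixed medium but were not called.

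Of 27 tested hypoxia-inducible genes 11 fell and 0 rose, with a median log2 fold change of -1.56. Without 1 library 3, 5, 1 and 1 fell, and the median was between -2.13 and -1.11. Vegfa, the vascular growth factor, was at 4.47 and 5.66 RPKM in activated T cells and had 0 reads in mixed medium, at least 94.8-fold lower. When 1 of the 4 libraries was left out, it was called in 1 of the 4 fits. Egln3, a prolyl hydroxylase that acts on HIF proteins, fell from 48.1 and 95.9 RPKM to 3.65 and 4.79 RPKM. Bnip3, a mitophagy receptor, fell from 55.9 and 159.9 RPKM to 5.62 and 8.62 RPKM. Hif1a itself was at 63.6 and 60.0 RPKM and at 36.1 and 25.01 RPKM in mixed medium and was not called (27.9% uniquely mapped reads). Bnip3l (33.7 and 72.7 against 53.2 and 50.4 RPKM) and Ddit4 (40.9 and 135 against 164 and 224 RPKM) were not called either.

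HIF factors bind the letters ACGTG, and the 250 bases upstream of 3 glycolysis and hypoxia genes are shown for it. They are the 3 largest falls at 5 or more RPKM with a match in the window of a start within 50 bases of that in the deposited tables, and ACGTG or its reverse CACGT is in capitals.
Hk2, minus strand, chr6:82774455-82774704: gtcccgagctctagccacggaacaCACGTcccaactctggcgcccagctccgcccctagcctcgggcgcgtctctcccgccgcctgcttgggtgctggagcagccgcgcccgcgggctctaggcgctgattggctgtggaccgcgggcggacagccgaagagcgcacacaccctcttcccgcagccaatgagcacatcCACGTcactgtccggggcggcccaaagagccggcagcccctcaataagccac
Egln3, minus strand, chr12:54203875-54204124: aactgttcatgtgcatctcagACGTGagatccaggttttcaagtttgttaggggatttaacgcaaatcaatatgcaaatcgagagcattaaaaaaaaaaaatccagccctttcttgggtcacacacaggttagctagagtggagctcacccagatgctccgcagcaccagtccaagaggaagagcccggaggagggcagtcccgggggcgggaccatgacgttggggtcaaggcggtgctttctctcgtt
Bnip3, minus strand, chr7:138909507-138909756: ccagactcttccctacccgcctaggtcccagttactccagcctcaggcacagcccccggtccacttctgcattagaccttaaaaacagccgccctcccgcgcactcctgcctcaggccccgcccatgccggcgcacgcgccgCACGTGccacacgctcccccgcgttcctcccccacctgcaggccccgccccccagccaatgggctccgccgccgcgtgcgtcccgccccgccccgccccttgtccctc
In Bnip3 the palindrome CACGTG counts on both strands. Over all starts of a gene, ACGTG was found for 16 of 22 hypoxia-inducible genes with a window (72.7%) and for 10 of 21 glycolysis genes (47.6%), against 18.5% of all genes of the table and 25.4% of the genes tested. Among called genes it was found for 30.7% of those that fell and 14.1% of those that rose. The windows of Ak4 and Vegfa next to the start in the deposited tables held no match. In the other lists the share ran from 6.67% (chemokine receptors and integrins) to 39.1% (activation and inhibitory receptors). For genes of ribosome biogenesis it was 18.9% (10 of 53). These shares are a description, and genes with more starts have more windows.

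Of 36 tested genes of amino acid transport and targets of ATF4 10 fell, 1 rose and 25 were not called, and the median log2 fold change was -1.44 (-1.40 with the genes that had 0 reads in mixed medium set at their bound). Shmt1 and Shmt2, enzymes that pass serine carbon to folate, fell from 95.5 and 33.8 RPKM to 4.33 and 3.51 RPKM and from 259 and 114 RPKM to 36.3 and 38.1 RPKM. Slc7a5, a transporter of large neutral amino acids, fell from 113 and 43.7 RPKM to 10.05 and 6.30 RPKM (11.97% uniquely mapped reads). Atf4, the factor of the integrated stress response, fell from 132 and 89.7 RPKM to 20.8 and 19.5 RPKM. Slc43a1, another amino acid transporter, rose from 4.36 and 1.57 RPKM to 27.0 and 13.7 RPKM.

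Enzymes of serine synthesis did not pass the test, Phgdh at 255 and 183 against 103 and 113 RPKM (37.7% uniquely mapped reads) and Psat1 at 170.5 and 137 against 54.6 and 89.2 RPKM. The calls of this list depended on the libraries, since 0, 9, 0 and 0 genes fell and 1, 0, 0 and 0 rose without 1 of them, while the median stayed between -1.65 and -1.18.

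Of 41 tested genes of cholesterol and fatty acid synthesis 10 fell and 0 rose, and the median log2 fold change was -1.21. Idi1, an isomerase of the mevalonate pathway, fell from 164 and 229 RPKM to 23.6 and 28.7 RPKM (log2 fold change -2.76, standard error 0.35, adjusted p = 0.0121 in edgeR). The sterol enzymes Lss (23.2 and 15.0 to 2.45 and 1.47 RPKM) and Cyp51 (86.0 and 72.7 to 12.98 and 13.2 RPKM) and the thiolase Acat2 (39.5 and 36.4 to 6.57 and 5.28 RPKM) also fell. The fatty acid genes Acly (78.6 and 50.2 against 39.2 and 24.8 RPKM) and Scd2 (82.7 and 57.5 against 53.04 and 23.2 RPKM) were not called. Without 1 library 1, 7, 0 and 0 genes fell, with medians between -1.21 and -0.86.

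Of 22 tested genes of fatty acid oxidation 3 rose and 0 fell, with a median log2 fold change of 0.61. Cpt1a, which brings fatty acids into mitochondria, rose from 3.43 and 5.05 RPKM to 26.0 and 11.3 RPKM, at an adjusted p of 0.0499 in edgeR. Acadl and Acaa2, enzymes of the oxidation cycle, rose from 24.8 and 27.2 RPKM to 68.5 and 57.5 RPKM and from 23.6 and 19.1 RPKM to 51.1 and 43.4 RPKM. All 3 lost their call whichever library was left out, and the median was between 0.56 and 0.84. Without activated library 2 another member, Lipa, was called higher.

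Of 34 tested genes of oxidative phosphorylation 1 fell, against 4.22% of all genes tested. It was Cycs, which encodes cytochrome c (33.0 and 32.3 to 7.98 and 10.8 RPKM), and its call was lost whichever library was left out. The median log2 fold change of 0.11 changed its sign with library size in place of TMM, with limma and without mixed medium library b. Of 28 genes of the citric acid cycle and of glutamine use 3 fell and 1 rose, and without 1 library 0 were called. Got1 (82.9 and 65.8 to 20.3 and 20.5 RPKM) and Dlat (26.8 and 18.5 to 7.89 and 7.53 RPKM) fell, as did the transaminase gene Gpt2 (1.88 and 1.98 to 0.220 and 0.340 RPKM). Idh2, the mitochondrial isocitrate dehydrogenase, rose from 21.8 and 14.3 RPKM to 58.4 and 49.97 RPKM.

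Ribosome biogenesis gave the largest block of falls. Of 59 tested genes 40 fell and 0 rose, against 4.22% of all genes, and 58 of the 59 log2 fold changes were below 0, with a median of -2.40. Nolc1, a phosphoprotein of the nucleolus, fell from 140.3 and 41.2 RPKM to 6.42 and 3.30 RPKM, and the nucleolar GTPase Gnl3 from 81.2 and 54.9 RPKM to 5.56 and 4.02 RPKM. Ppan, a factor of the large subunit, fell from 76.5 and 41.1 RPKM to 4.07 and 4.75 RPKM. The most abundant of the members not called were Npm1 and Ncl, which encodes nucleolin. Npm1 was at 2213 and 1760.3 against 1340.5 and 1430.3 RPKM, and Ncl at 365 and 132 against 69.1 and 19.2 RPKM. Both were lower in mixed medium.

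The calls of ribosome biogenesis depended on which library was left out. Without activated library 2, 41 genes fell, whereas 2 fell without activated library 1, 2 without mixed medium library a and 0 without library b. The median stayed at -1.86 or lower in all 4 fits, down to -2.85.

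Of 32 tested genes of the unfolded protein response and of heat shock 6 fell and 0 rose, with a median log2 fold change of -0.73. Hsp90aa1, a stress-induced chaperone, fell from 737 and 831 RPKM to 96.5 and 82.4 RPKM (25.2% uniquely mapped reads), and the mitochondrial chaperone Hspd1 from 766 and 451 RPKM to 76.1 and 74.3 RPKM. Hyou1, a chaperone of the endoplasmic reticulum, fell from 56.6 and 22.8 RPKM to 9.07 and 6.45 RPKM. The constitutive chaperones Hspa8 (2554 and 1738 against 1934 and 1499 RPKM) and Hsp90ab1 (2088 and 1207 against 1018 and 469 RPKM) were not called. Without 1 library 2, 6, 1 and 0 genes fell.

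Genes of DNA replication and of mitosis had medians of opposite sign. Of 40 tested replication genes 1 fell, against 4.22% of all genes tested, and 0 rose. The gene that fell was Orc1 of the origin recognition complex (18.3 and 13.5 to 3.80 and 1.98 RPKM). In this list 32 log2 fold changes were below 0, with a median of -0.52. Of 41 tested mitosis genes 4 rose, 0 fell, and 34 log2 fold changes were above 0, with a median of 0.96. Both signs held whichever library was left out, between -0.94 and -0.11 for replication and between 0.43 and 1.65 for mitosis. Whether the lists differ from each other was not tested. The call of Orc1 was lost whichever library was left out. DESeq2 called 1 replication gene higher and 9 lower, and 11 mitosis genes higher and 0 lower.

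Ccnb2, a cyclin of mitotic entry (ENSMUSG00000032218, chromosome 9 of GRCm38, from 70407692 to 70421547, 9 exons), rose from 7.07 and 3.31 RPKM to 84.6 and 84.4 RPKM (log2 fold change 4.19, standard error 0.42, adjusted p = 0.00991 in edgeR). It stayed called whichever library was left out. Cenpa, the histone of centromeres, rose from 11.4 and 9.70 RPKM to 80.1 and 103 RPKM, and Ube2c, a ubiquitin carrier of the anaphase-promoting complex, from 20.0 and 6.73 RPKM to 56.4 and 49.0 RPKM. Nusap1, a protein of the spindle, rose from 7.53 and 4.36 RPKM to 38.02 and 20.5 RPKM. Without 1 library 2, 3, 2 and 1 mitosis genes rose.

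Some mitosis genes differed more within a group than between the groups. Mki67 was at 11.3 and 2.05 RPKM in activated T cells and at 14.8 and 1.27 RPKM in mixed medium, and Top2a at 88.8 and 24.0 and at 97.1 and 14.5 RPKM. In the genes with 8 kb or more of exons (n = 842), the median deviation from the mean of the 4 libraries was 0.30 and -0.08 (log2) in activated T cells and 0.32 and -0.46 in mixed medium. The replication genes Pcna (629.9 and 489 against 309 and 395 RPKM, 43.3% uniquely mapped reads) and Mcm3 (249 and 128 against 83.4 and 51.2 RPKM) were lower in mixed medium but were not called.

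**Figure D3:**
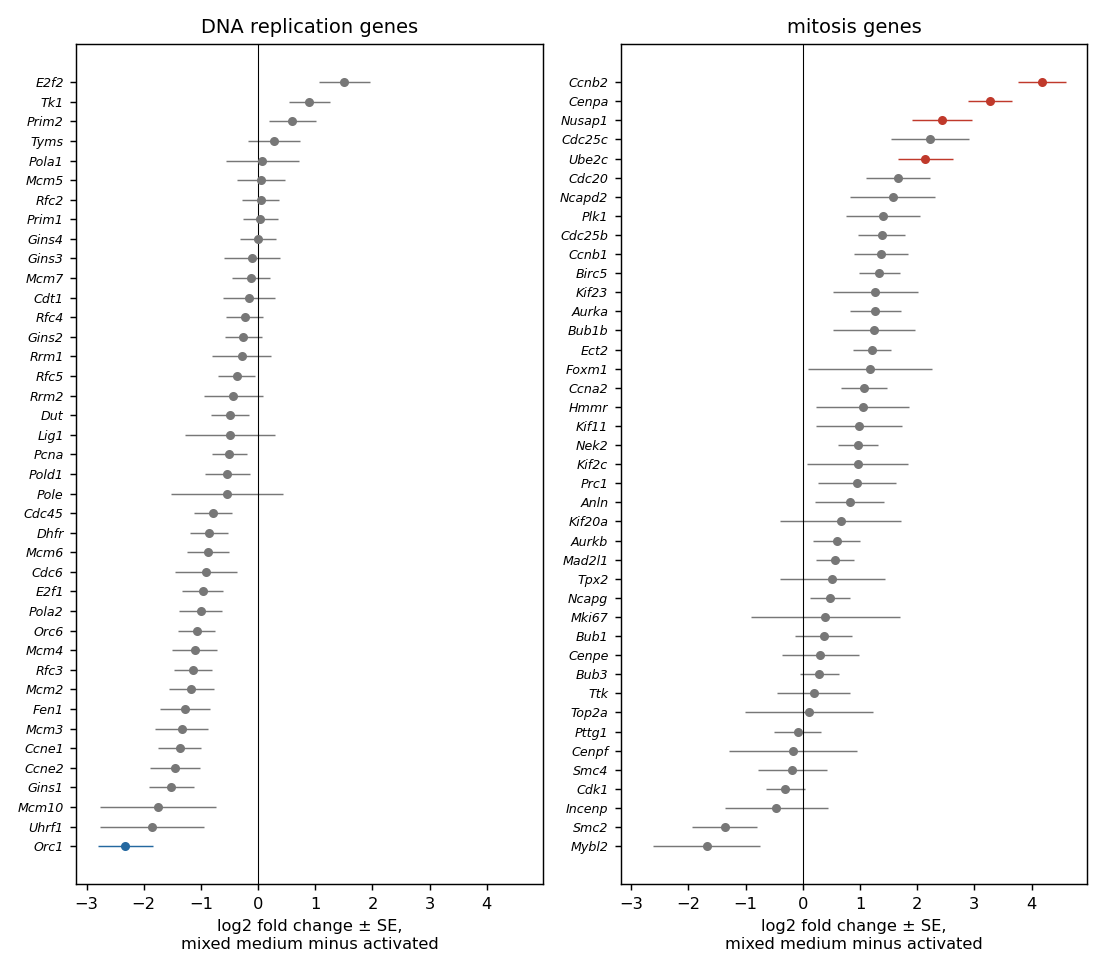
The log2 fold change (mixed medium minus activated, edgeR) on the x axis with its standard error for each tested gene of DNA replication (left, 40 genes) and mitosis (right, 41 genes), sorted by value; red points are called higher, blue points called lower, grey points not called. Orc1 is the only replication gene called, and Ccnb2, Cenpa, Nusap1 and Ube2c are the mitosis genes called.

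Of 34 tested genes of apoptosis and p53 targets 3 fell and 2 rose, with a median log2 fold change of -0.36 that became positive without activated library 2. Bcl2l1, which encodes the survival factor BCL-XL, fell from 31.4 and 25.1 RPKM to 7.72 and 8.28 RPKM. Cdkn1a, the cell cycle inhibitor p21, fell from 12.4 and 56.0 RPKM to 2.68 and 4.56 RPKM, and the nuclease gene Aen from 11.2 and 7.30 RPKM to 1.14 and 2.47 RPKM. The sestrin genes Sesn1 (5.28 and 6.20 to 27.8 and 25.5 RPKM) and Sesn3 (6.85 and 8.65 to 22.6 and 17.2 RPKM), inhibitors of mTORC1, rose. Without 1 library 1, 1, 0 and 0 genes fell and 0, 4, 0 and 0 rose.

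Of 45 tested interferon-stimulated genes 5 rose, 0 fell and 40 were not called, while DESeq2 called 19 higher and 0 lower. They had a median log2 fold change of 1.00, between 0.88 and 1.14 when 1 library was left out. Slfn1, a gene of the schlafen family, rose from 16.02 and 34.0 RPKM to 98.6 and 99.9 RPKM, and the GTPase Irgm2 from 10.6 and 12.2 RPKM to 43.2 and 33.2 RPKM. Tap1, which pumps peptides for MHC class I, rose from 101 and 88.1 RPKM to 263 and 299 RPKM (log2 fold change 1.73, standard error 0.29, adjusted p = 0.0205 in edgeR). Its call was lost whichever library was left out. Psmb9, a subunit of the immunoproteasome, rose from 63.8 and 79.2 RPKM to 195 and 242 RPKM. Psmb9 and Tap1 overlap in the annotation. The fifth was Psmb10, another such subunit, which rose from 52.8 and 76.4 RPKM to 150.0 and 186 RPKM. Psmb8 (206 and 279.8 against 421 and 532 RPKM) and Ly6e (157 and 308 against 621 and 398 RPKM) were not called. Without 1 library 0, 6, 0 and 0 genes rose.

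Of 30 tested genes of autophagy and lysosomes 1 rose and 1 fell, near the 2.32% and 4.22% of all genes tested. The gene that rose was Npc2, which carries cholesterol out of lysosomes (90.0 and 109 to 315 and 329 RPKM). The cathepsin Ctsz fell (124 and 96.2 to 34.1 and 37.5 RPKM). Of 22 genes of the metal and antioxidant response 5 fell and 0 rose, among them the metallothionein Mt2 (56.0 and 83.1 to 10.8 and 8.87 RPKM), the zinc importer Slc39a10 (11.1 and 8.13 to 1.37 and 1.83 RPKM) and the thioredoxin reductase Txnrd1 (50.7 and 31.1 to 11.5 and 7.01 RPKM). The median of the latter list was -0.02, and its sign changed with DESeq2 and with other sets of libraries. Of its genes 0, 4, 0 and 0 fell without 1 library, and 0, 3, 0 and 0 genes of autophagy and lysosomes rose, with 0 falls in each fit. Of 8 tested genes of V(D)J recombination Dntt rose, and the recombinase genes Rag1 and Rag2 were too low to be tested.

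**Figure D4:**
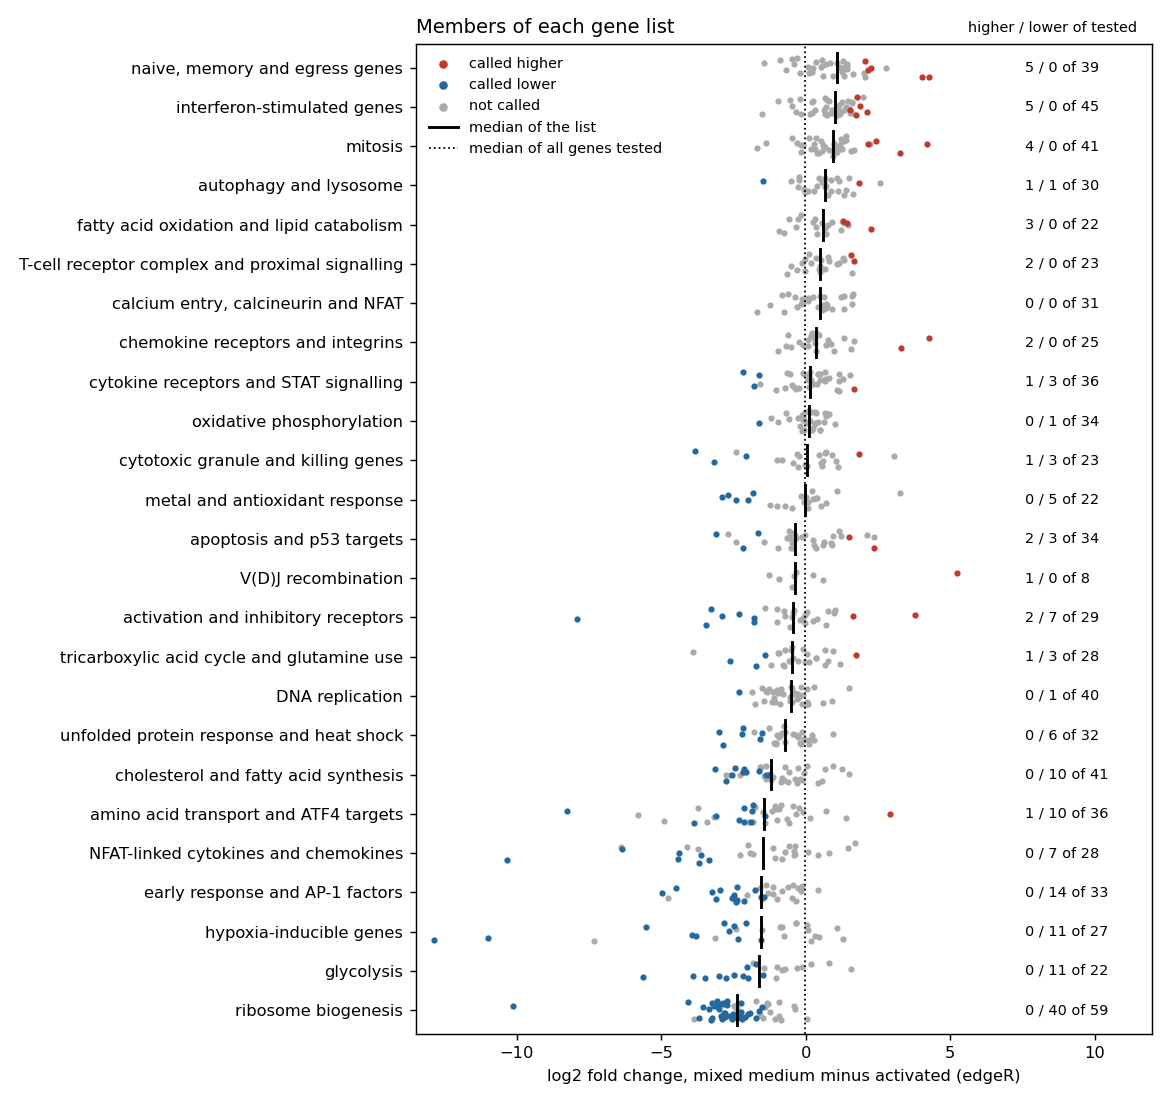
Each row is 1 of the 25 gene lists, sorted by its median, and each point the log2 fold change (mixed medium minus activated, edgeR) of a tested member on the x axis, red where called higher, blue where called lower and grey where not called. Black bars are the medians of the lists, the dotted line is the median of all genes tested, -0.01, and the numbers give the called members; naive, memory and egress genes have the highest median, 1.07, and ribosome biogenesis the lowest, -2.40.

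The most abundant RNAs were largely shared by both groups. Among the 10 highest means of each group were mt-Co3, Eef1a1, mt-Atp6, mt-Co1, mt-Co2, mt-Atp8, Rplp1 and Rps12-ps3 in both, mt-Nd1 and mt-Nd3 in activated T cells only, and Rps2 and Rps18 in mixed medium only. Eef1a1, the elongation factor of translation, was at 7098 and 7834 RPKM in activated T cells and at 14272 and 12888 RPKM in mixed medium. The respiratory chain gene mt-Co3 was at 4722 and 12549.5 RPKM and at 13353 and 26022 RPKM. None of these genes was called. Of Rps12-ps3 0.0% of the reads mapped uniquely.

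For 17 called genes the activated libraries differed more than 4 fold from each other, so that their fold change rests on unequal libraries. Cdkn1a (12.4 and 56.0 RPKM) and Lilrb4 (2.72 and 11.2 RPKM) were higher in activated library 2, as were Tmem71 (2.19 and 10.2 RPKM) and Mturn (0.325 and 1.40 RPKM). Mybbp1a of the ribosome list (205 and 48.3 RPKM), Car12 (7.83 and 1.90 RPKM), Myo19 (5.06 and 0.548 RPKM), Jmjd7 (2.42 and 0.528 RPKM), Psrc1 (0.871 and 0.102 RPKM), Cdkn3 (1.13 and 0.234 RPKM) and 1500009L16Rik (1.15 and 0.116 RPKM) were higher in library 1. The other 6, Cym (0.0963 RPKM), Trnp1 (0.252 RPKM), Slc16a5 (0.250 RPKM), Hacl1_1 (0.337 RPKM), Endou (0.0217 RPKM) and Zscan10 (0.0868 RPKM), were low in library 1 and at 0 in library 2. Of Jmjd7 and Hacl1_1 0% of the reads mapped uniquely. Whether reads were counted by strand is not given in the sources used here, so that genes that overlap another tested gene share reads with it to an unknown degree. Beside the overlaps given above, this applies among the called genes described to Tpi1 (Spsb2), Hspd1 (Hspe1), Itgae (Haspin), Shmt1 (Smcr8), Cyp51 (Akap9), Gnl3 (Pbrm1), Myo19 (Pigw and Znhit3), Hacl1_1 (Colq and Hacl1_2), Dgka (Pmel), Tnfrsf9 (Camta1), Cd27 (Vamp1), Slc7a5 (Gm20388), Ccr9 (Lztfl1), Nusap1 (Oip5), Irgm2 (Igtp), Ifnar2 (Gm21970), Ctsz (Nelfcd) and Mybbp1a (Spns2). Among 6841 genes at 5 or more RPKM in either group, 152 differed more than 4 fold between the activated libraries and 116 between the libraries of mixed medium.

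Reads on introns moved in the same direction as the exon reads for most of the called genes that could be compared. They made up 2.41% and 3.69% of all gene reads in activated T cells and 3.99% and 4.26% in mixed medium. With 40 or more uniquely mapped intron reads in the 4 libraries together, 159 of the genes that rose and 216 of those that fell could be looked at. Relative to all gene reads, intron reads were higher in mixed medium for 143 of the 159 (89.9%) and lower for 175 of the 216 (81.0%), where 47.1% of all 5074 such genes were higher and 52.9% lower. These counts come from the same libraries as the calls and are given as a description.

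Among the genes that rose, intron reads of Itgae were 4 and 4 in activated T cells and 79 and 159 in mixed medium, those of Slc6a19 4 and 0 against 129 and 87, and those of Pik3ip1 21 and 34 against 186 and 366. Tcf7 had 112 and 151 intron reads in activated T cells and 807 and 295 in mixed medium. Among the genes that fell, Il2ra had 156 and 207 intron reads and 27 and 66 in mixed medium, Gzmb 57 and 17 against 0 and 10, and Myc 38 and 16 against 0 and 0. Tfrc was an exception, with 16 and 7 intron reads against 16 and 17 in mixed medium, although its exon reads fell.

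**Figure D5:**
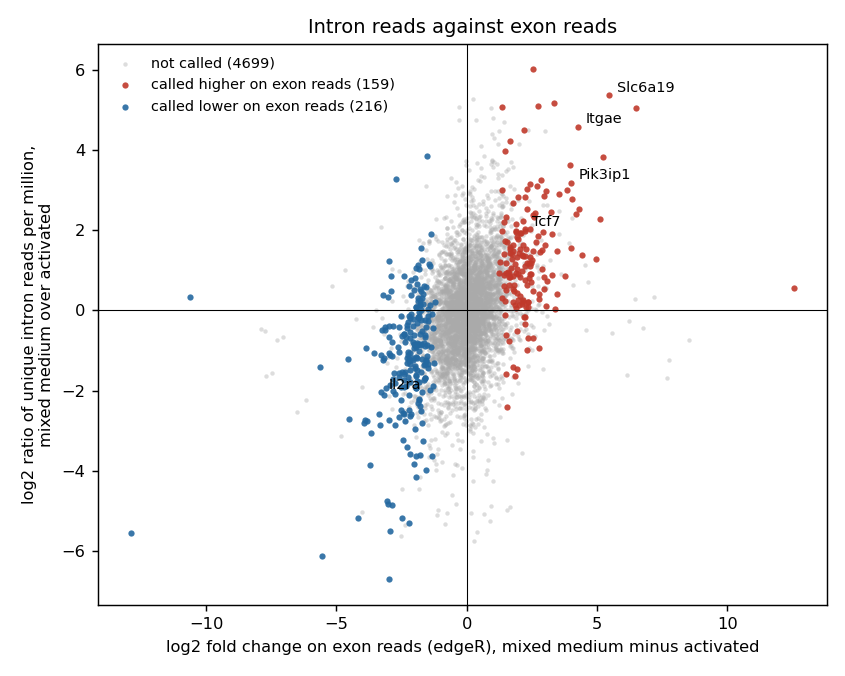
The log2 fold change on exon reads (edgeR, x axis) and the log2 ratio of unique intron reads relative to all gene reads (mean of mixed medium over mean of activated, 0.05 added to both, y axis) for 5074 genes with 40 or more unique intron reads. Of the genes called higher (red) 143 of 159 lie above 0 on the y axis, and of those called lower (blue) 175 of 216 below.

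By size alone, 1482 of the 6841 genes at 5 or more RPKM in either group had group means that lay at least 2.5 fold apart, 420 (6.14%) higher and 1062 (15.5%) lower in mixed medium. Of these 684 were also called by edgeR. When every library of 1 group had to be 2.5 fold past every library of the other, 184 were higher and 490 lower.

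Markers of other cells were present in both groups, and 0 were called in edgeR with no library left out. At an unadjusted p under 0.05 there were 6, DESeq2 called 1 (Eomes, which T cells also use) lower, and limma called 0. Cd4 was at 16.8 and 102 RPKM in activated T cells and at 67.2 and 75.9 RPKM in mixed medium. The summed level of 4 markers of CD4+ T cells was at 21.2 and 128 RPKM and at 76.4 and 94.4 RPKM. Their median log2 fold change was 0.13, and it lay between -0.62 and 2.05 when 1 library was left out. Of 8 myeloid markers in the tables, summed at 18.5 and 80.4 RPKM against 49.6 and 51.9 RPKM, Lyz2 had the largest part (10.6 and 57.4 against 37.9 and 39.9 RPKM). Thus both sums were lowest in activated library 1, which was also the lowest for Klf2, S1pr1 and Il7r, and the part of other cells in these differences was not tested. Markers of B cells were at 32.0 and 36.5 RPKM and at 46.5 and 95.3 RPKM, those of dendritic cells, most of them MHC class II genes, at 240.4 and 444 RPKM and at 232 and 422 RPKM, and those of NK cells, which like T cells express Klrd1, at 13.3 and 11.1 RPKM and at 5.86 and 4.56 RPKM. Hemoglobin genes and Alas2 were at 516 and 1441 RPKM and at 912 and 1589 RPKM. Of 10 keratinocyte markers, Krt15 was at 0 in all 4 libraries, Krt5, Trp63, Col17a1 and Dsp were at or below 0.253 RPKM in each, and Sfn, which other cells also express, was the highest (16.6 and 19.2 against 9.39 and 3.27 RPKM).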

How the data were processed

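Per the labels, poly(A) RNA of CD8+ T cells was prepared with the NEBNext Ultra II kit and sequenced. The authors mapped the reads to GRCm38, with CLC Genomics Workbench at default settings as stated for the keratinocyte libraries of the same series, and deposited, for each library, a table of exon and intron read counts and RPKM per gene. Whether strand was used in counting and how multi-mapped reads were assigned are not given in the sources used here. The deposited RPKM use a decimal comma and were read as the authors' values (reads per kilobase of exon, scaled to mapped reads), and were used for levels.

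Total exon read counts of 6 T-cell libraries (both groups and 2 libraries of T cells co-cultured with keratinocytes, which share the estimate of the spread) entered edgeR 4.0.16 under R 4.3.3 (TMM after filterByExpr, quasi-likelihood test, contrast mixed medium minus activated, Benjamini-Hochberg adjusted p under 0.05). The labels give the mixed medium libraries no replicate number, so they are called a and b. Alternatives were limma 3.58.1 on log2 RPKM after 1 or 0.1 was added, DESeq2 1.42.0, and other scalings, filters and library sets. The depth was 13161039 to 15926898 exon reads per library.

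The genes and lists were chosen with earlier results of these data known. Genes named were the 10 largest rises and falls at 5 or more RPKM with libraries that do not overlap, up to 4 called members per list and direction and the 3 most abundant members not called, the 10 most abundant genes per group, a set of marker, cytokine and regulator genes, and called genes with activated libraries over 4 fold apart. Lta, Psmb10, Gpt2 and the markers of other cells with values were named in addition, after their values were seen. Intron reads were compared for genes with 40 or more unique intron reads. Upstream sequences came from RefSeq (GRCm38.p6). Some genes that these rules choose are not reported here.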

Additional observations from a re-analysis of the deposited data

How the results depend on the processing

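Calls depended on the tool and filter more than directions did. DESeq2 called 862 genes higher and 1086 lower, edgeR without a filter 843 and 1102 of 15291 genes, limma on log2(RPKM + 1) 818 lower, and edgeR after removal of a gene length trend 523 higher, against 275 and 501. The cause was not tested, except that the unfiltered fit tested more genes. When 1 library was left out, co-culture libraries included, 16 to 397 genes were higher and 8 to 670 lower. By size alone, 420 genes were higher and 1062 lower 2.5 fold or more. Without an RPKM minimum these were 2080 and 3100 of 14548 genes, with every library past every library 184 and 490, and without 1 library 403 to 711 and 751 to 1438. Of the values of single genes under alternatives other than a left-out library, 2020 kept their side of the threshold, 67 gained and 33 lost the call. With 1 library left out, more values lost the call than gained it. All 776 called genes kept their direction without each of the 4 libraries compared. Genes not called did not always: the fold changes of Batf, Calm2, Tigit and Top2a changed sign in some of these fits. Scaling by library size gave 201 higher and 500 lower calls. It shifted the median of all genes to -0.13 from -0.01. With 2 libraries a group, calls below a log2 change of 1.20 were not obtained. No paired analysis was possible because the mixed medium libraries carry no replicate number.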
